A study of Mus musculus with 4 samples.

Results

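The 45 interferon-stimulated genes described here were chosen by symbol, with earlier results of these data known. All 45 were found among the 12800 genes of a single-cell count table of sorted mouse microglia. Live CD11b+ CD45low cells had been sorted from brains of male mice aged 12 to 14 months, 30000 from each hemibrain, and cells of 2 animals were pooled into each of 4 libraries. Trem2 -/-, Trem2 +/- and Trem2 +/+ mice had received 0.2% cuprizone for 12 weeks, and Trem2 +/+ mice on control diet gave the baseline library. Each group is therefore 1 library. Differences between libraries are given with counting error only, no test between groups was possible, and variation between animals was not measured. The Trem2 -/- and the Trem2 +/- libraries are both set against the same Trem2 +/+ cuprizone library, which is also the library set against control diet, so a chance deviation of that library would enter every comparison.

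Interferons are secreted proteins that bind receptors on the cell surface, and their receptors act through JAK kinases and STAT transcription factors. For type I interferon, a complex that holds IRF9 binds a DNA element in the promoters of the stimulated genes and raises their transcription. The products hinder virus entry, sense foreign nucleic acid, block translation and amplify or dampen the response. In the brain, microglia that carry many of these transcripts at once have been described with age, injury and loss of myelin. Cuprizone is a copper chelator that kills oligodendrocytes and strips axons of myelin, and TREM2 is a lipid-binding receptor of microglia that takes part in their response to myelin debris.

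Promoters show what many of these genes share outside the counts. RefSeq promoter sequences of build GRCm38.p6, each holding 250 bases before the transcription start and 50 bases from it, were matched for 37 of the 45 members. The letters GAAANNGAAA, a loose form of the interferon-stimulated response element, were searched on both strands. They occurred in at least 1 promoter of 19 of the 37 matched members (51.4%), against 3.44% of 32851 promoters and 3.99% of 27025 genes in the same table. A match is a description of the letters and not a binding site. The promoters of 5 members are shown because the results below turn on them. Isg15 and Ifit3 mark the cells with many interferon-stimulated transcripts, and Rsad2 had the highest ratio in those cells. Ifitm3 is an abundant member whose level differed between libraries. Irf9 is a member that did not follow those cells. Capitals mark every match. Positions count from 1 at the first transcribed base, with the base before it at -1.
Isg15, chr4:156200769-156201068, minus strand: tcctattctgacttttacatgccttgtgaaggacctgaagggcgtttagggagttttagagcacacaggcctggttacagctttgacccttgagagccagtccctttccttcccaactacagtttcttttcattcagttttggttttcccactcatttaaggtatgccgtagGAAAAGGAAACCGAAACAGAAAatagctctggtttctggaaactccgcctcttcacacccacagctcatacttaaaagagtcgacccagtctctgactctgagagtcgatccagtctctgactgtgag
Ifit3, chr19:34583279-34583578, plus strand: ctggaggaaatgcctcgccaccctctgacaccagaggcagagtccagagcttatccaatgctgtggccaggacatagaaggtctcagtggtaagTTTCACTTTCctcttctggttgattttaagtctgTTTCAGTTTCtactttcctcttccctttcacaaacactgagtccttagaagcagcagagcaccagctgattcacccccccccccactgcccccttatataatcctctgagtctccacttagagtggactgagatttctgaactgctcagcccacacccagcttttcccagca
Rsad2, chr12:26456403-26456702, minus strand: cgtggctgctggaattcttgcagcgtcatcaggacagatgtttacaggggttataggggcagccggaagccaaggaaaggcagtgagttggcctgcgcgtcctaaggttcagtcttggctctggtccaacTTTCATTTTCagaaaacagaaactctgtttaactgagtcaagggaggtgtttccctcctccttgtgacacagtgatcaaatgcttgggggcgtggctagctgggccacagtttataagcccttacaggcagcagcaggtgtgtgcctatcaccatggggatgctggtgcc
Ifitm3, chr7:141010695-141010994, minus strand: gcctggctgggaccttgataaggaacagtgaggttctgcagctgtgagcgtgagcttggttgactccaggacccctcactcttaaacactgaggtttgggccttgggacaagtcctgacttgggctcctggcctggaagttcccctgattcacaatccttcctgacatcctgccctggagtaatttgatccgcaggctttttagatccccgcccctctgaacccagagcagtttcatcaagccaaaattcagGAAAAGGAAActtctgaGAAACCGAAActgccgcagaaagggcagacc
Irf9, chr14:55603735-55604034, plus strand: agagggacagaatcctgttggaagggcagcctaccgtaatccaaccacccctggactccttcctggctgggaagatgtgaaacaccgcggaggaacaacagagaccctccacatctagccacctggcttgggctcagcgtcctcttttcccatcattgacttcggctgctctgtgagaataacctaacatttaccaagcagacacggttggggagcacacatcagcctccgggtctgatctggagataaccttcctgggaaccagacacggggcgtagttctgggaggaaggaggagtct
The Isg15 promoter held 3 matches that overlap each other and begin at -78, -72 and -66. The Ifit3 promoter held 2 separate matches on the opposite strand, with first bases at -156 and -122. The Rsad2 promoter held 1, at -120, also on the opposite strand. In Ifitm3 both matches lay just after the start, at 3 and 20. The Irf9 window held none.

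Levels are given as UMIs (unique molecular identifiers, which mark captured molecules) per 1000000 UMIs of a library, written CPM. They are summed over the authors' clusters 01, 02, 04, 05, 06 and 08. Clusters 03 and 07 are given apart, because their leading genes include markers of neutrophils, choroid plexus or border macrophages. This pool held 753 Trem2 -/-, 695 Trem2 +/-, 663 Trem2 +/+ cuprizone and 479 Trem2 +/+ control cells, with 6514310, 6552603, 6175520 and 3638474 UMIs. The 10 microglia markers were all detected in every library and summed to between 21364 and 25893 CPM. Trem2 itself stood at 520 CPM in the Trem2 -/- library and 1763 CPM in the Trem2 +/- library, against 2939 CPM in the Trem2 +/+ cuprizone library and 3132 CPM on control diet. Whether the counted 3′ end lies outside the deleted part is not given in the sources used here. Neutrophil markers summed to 634 CPM in Trem2 -/- and 1744 CPM in Trem2 +/-, against 47.1 CPM on cuprizone and 0 CPM on control diet in Trem2 +/+, and their part in the results was not tested. Across libraries, 8 barcodes occurred more than once, touching between 2 and 5 cells of each library.

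The summed level of the 45 members was 1901 CPM in the Trem2 -/- library (Poisson 95% interval 1867 to 1934) and 2043 CPM in the Trem2 +/- library (2009 to 2078), against 2341 CPM in the Trem2 +/+ cuprizone library (2303 to 2380). The Trem2 +/+ control library stood lowest at 1501 CPM (1461 to 1541). The 3 cuprizone libraries thus all lay above control diet, and both libraries with a mutant allele lay below the Trem2 +/+ cuprizone library, by more than counting error. The sum rests on few genes: Bst2, Ifi27l2a, Lgals3bp and Ifitm3 gave 46.2% of all member UMIs. The ratio of summed shares was 1.56 for cuprizone over control diet in Trem2 +/+ (exact binomial 95% interval 1.51 to 1.61). It was 0.812 for Trem2 -/- over Trem2 +/+ on cuprizone (0.792 to 0.832) and 0.873 for Trem2 +/- over Trem2 +/+ (0.852 to 0.894).

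A gene is called here when its ratio is at least 1.5-fold in either direction, its counting interval excludes 1 and it has at least 50 UMIs over both libraries. On cuprizone, 19 of the 41 members with enough UMIs were called higher in Trem2 +/+ than on control diet and 0 lower, against 2.59% of 8819 genes called higher and 4.44% called lower. The median log2 ratio of these members was 0.53, against -0.11 over all genes. In Trem2 -/-, 10 of 43 members were called lower and 0 higher, against 3.86% of 9189 genes called lower and 1.64% called higher. The median was -0.21, with -0.0015 over all genes. In Trem2 +/-, 4 of 42 members were called lower and 0 higher, against 1.17% of 9248 genes called lower and 1.32% called higher. The median was -0.23, with -0.0076 over all genes. At 2-fold in place of 1.5-fold, 12 members were higher on cuprizone and 0 lower, with 1.39% and 0.59% of all genes. In Trem2 -/- 2 were lower and 0 higher, with 1.23% and 0.392% of all genes. In Trem2 +/- 1 was lower and 0 higher, with 0.227% and 0.454% of all genes. All 4 calls in Trem2 +/- were lost without cluster 04, a cluster of 150 Trem2 +/- and 122 Trem2 +/+ cuprizone cells but only 13 Trem2 -/- and 6 control cells. In Trem2 -/- the count without cluster 04 was 5, of which 4 were among the 10. Isg15, Oasl2, Ifih1 and Ifi204 were called lower in Trem2 -/- under each of 6 alternatives, namely TMM scaling, all deposited cells, no cluster 04, no cluster 08, no top cell for each gene and no cells of the deepest 5%. For cuprizone 13 of the 19 were called under each of them.

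**Figure D1:**
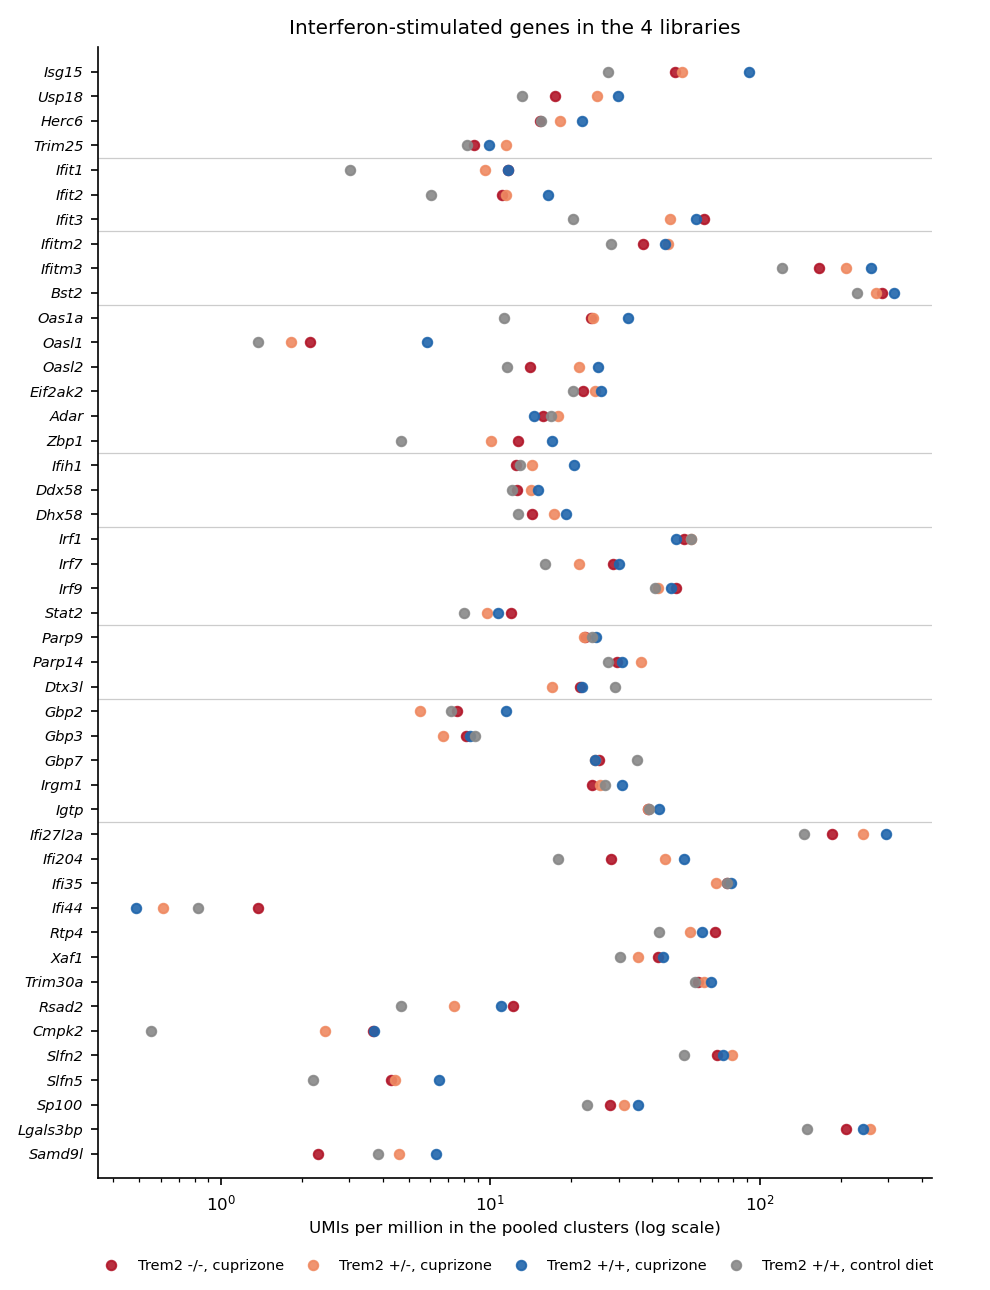
Level of each of the 45 members (CPM, log axis) in the 4 libraries, ordered by role with grey lines between roles, 1 point per library. Isg15 stands at 48.4, 51.7 and 91.0 CPM in the Trem2 -/-, Trem2 +/- and Trem2 +/+ cuprizone libraries and at 27.5 CPM on control diet, while Irf1, Irf9, Ifi35 and Igtp hardly separate by library.

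Among genes of ISG15 conjugation, Isg15 encodes a ubiquitin-like protein that is attached to other proteins. It had 48.4 CPM in Trem2 -/- and 51.7 CPM in Trem2 +/-, against 91.0 CPM in Trem2 +/+ on cuprizone and 27.5 CPM on control diet. Both mutant libraries lay well below the Trem2 +/+ cuprizone library and above control diet. The Trem2 -/- level was 1.88-fold lower (1.64 to 2.17) and the Trem2 +/- level 1.76-fold lower (1.53 to 2.02). Without cluster 04 the Trem2 +/- ratio was 0.711 and no longer called. Usp18, the protease that removes ISG15 and dampens receptor signalling, had 17.3 CPM in Trem2 -/- and 25.03 CPM in Trem2 +/-, against 29.8 CPM on cuprizone and 13.2 CPM on control diet in Trem2 +/+. It was 1.72-fold lower in Trem2 -/- (1.35 to 2.19), falling short of the threshold without cluster 04 at a ratio of 0.671, and 2.26-fold higher on cuprizone (1.64 to 3.17). The 4 genes of the group together had a ratio of 0.589 in Trem2 -/- and 2.37 on cuprizone.

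Of the IFIT genes, whose products bind foreign RNA, Ifit2 lay near the threshold in Trem2 -/-. Summed over cells, Ifit1 and Ifit3 were not lower there as Isg15 was. Ifit3 had 62.2 CPM in Trem2 -/- and 46.5 CPM in Trem2 +/-, against 58.3 CPM on cuprizone and 20.3 CPM on control diet in Trem2 +/+. Summed over cells, the Trem2 -/- level was thus close to the Trem2 +/+ cuprizone level, with a ratio of 1.07 (0.923 to 1.23). The Isg15 ratio was 0.531 (0.461 to 0.611). Both intervals take UMIs as independent, but the top Trem2 +/+ cuprizone cell held 89 Isg15 UMIs and the top Trem2 -/- cell 40 Ifit3 UMIs. The intervals can therefore be too narrow, and a difference between these genes was not tested. In cells thinned as described below, Ifit3 was found in 7.58% of Trem2 -/- and 9.44% of Trem2 +/+ cuprizone cells, lower in Trem2 -/- as for Isg15. Ifit1 had 11.7, 9.61 and 11.7 CPM in the Trem2 -/-, Trem2 +/- and Trem2 +/+ cuprizone libraries and 3.02 CPM on control diet. Ifit2 had 11.1, 11.4 and 16.4 CPM in those libraries and 6.05 CPM on control diet. All 3 were called higher on cuprizone, by 2.87-fold for Ifit3 (2.23 to 3.73), 3.86-fold for Ifit1 (2.03 to 8.07) and 2.70-fold for Ifit2 (1.69 to 4.51). None was called lower in Trem2 -/- or Trem2 +/-. The Trem2 -/- ratio of Ifit2 was 0.676 (0.492 to 0.923), and it was called lower over all deposited cells, without cluster 04, without cluster 08 and without the 5% deepest cells. Summed over the 3 genes the Trem2 -/- ratio was 0.984, against 0.531 for Isg15. Reads of Ifit3 and its close copy Ifit3b may have been divided between them by the authors' counting.

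Membrane restriction factors act where viruses enter or leave. Ifitm3, which hinders virus entry, had 166 CPM in Trem2 -/- and 208 CPM in Trem2 +/-, against 259.7 CPM on cuprizone and 121 CPM on control diet in Trem2 +/+. It was 1.56-fold lower in Trem2 -/- (1.45 to 1.69) and 2.15-fold higher on cuprizone (1.93 to 2.39). The Trem2 -/- call ended without cluster 04, at a ratio of 0.689, and over all deposited cells, at 0.6996. Bst2, which holds budding virus at the cell surface, had 286 CPM in Trem2 -/- and 271 CPM in Trem2 +/-, against 317 CPM on cuprizone and 229 CPM on control diet. None of its ratios reached 1.5-fold. Ifitm2 had 37.0, 45.6 and 44.5 CPM in the Trem2 -/-, Trem2 +/- and Trem2 +/+ cuprizone libraries and 28.0 CPM on control diet. Its cuprizone ratio of 1.59 (1.26 to 2.01) was 1.17 without cluster 04, 1.11 over all deposited cells and 1.44 without its top cells, with no call in any of these.

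Of the effectors and sensors of double-stranded nucleic acid, Oas1a, an oligoadenylate synthetase, had 23.6 CPM in Trem2 -/- and 24.1 CPM in Trem2 +/-, against 32.5 CPM on cuprizone and 11.3 CPM on control diet in Trem2 +/+. Oasl2, a related enzyme, had 14.1, 21.4 and 25.1 CPM in the Trem2 -/-, Trem2 +/- and Trem2 +/+ cuprizone libraries and 11.5 CPM on control diet. Trem2 +/- cells lay close to Trem2 +/+ on cuprizone for Oasl2, while Trem2 -/- cells were 1.78-fold lower (1.36 to 2.33). Oasl1, a related protein that curbs Irf7 translation in mice, was rare, with 2.15 CPM in Trem2 -/- and 1.83 CPM in Trem2 +/-, against 5.83 and 1.37 CPM in Trem2 +/+ on cuprizone and control diet. It was 2.71-fold lower in Trem2 -/- (1.43 to 5.44), and lost the call without cluster 04, cluster 08, the deepest cells or its top cell, where under 50 UMIs were left. Zbp1, a sensor of left-handed nucleic acid that can start necroptosis, had 12.7 CPM in Trem2 -/- and 10.1 CPM in Trem2 +/-, against 17.003 CPM on cuprizone and 4.67 CPM on control diet. It was 3.64-fold higher on cuprizone (2.17 to 6.48) and 1.69-fold lower in Trem2 +/- (1.23 to 2.33). Eif2ak2, the kinase that stops translation, and Adar, which edits double-stranded RNA, were not called in any comparison.

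The RNA sensors were less abundant. Ifih1, which encodes the long-RNA sensor MDA5, had 12.4 CPM in Trem2 -/- and 14.3 CPM in Trem2 +/-, against 20.6 CPM on cuprizone and 12.9 CPM on control diet in Trem2 +/+. Its Trem2 -/- level was close to that of control diet, and it was 1.65-fold lower than Trem2 +/+ on cuprizone (1.24 to 2.21). Dhx58, a regulator of these sensors, had 14.3, 17.2 and 19.1 CPM in the Trem2 -/-, Trem2 +/- and Trem2 +/+ cuprizone libraries and 12.6 CPM on control diet. It was called higher on cuprizone at 1.51-fold (1.07 to 2.17), just past the threshold, and not over all deposited cells.

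The transcription factors of the pathway differed less. Irf7, which amplifies the response, had 28.7 CPM in Trem2 -/- and 21.4 CPM in Trem2 +/-, against 30.1 CPM on cuprizone and 15.9 CPM on control diet in Trem2 +/+. It was 1.89-fold higher on cuprizone (1.40 to 2.58), with a ratio of 1.39 and no call over all deposited cells. Its Trem2 -/- ratio was 0.953 (0.774 to 1.17). Irf9 had 49.1, 42.1 and 47.1 CPM in the Trem2 -/-, Trem2 +/- and Trem2 +/+ cuprizone libraries and 41.0 CPM on control diet. Irf1 had 52.5, 55.6 and 48.9 CPM in those libraries and 55.8 CPM on control diet. Neither was called in any comparison. The summed ratio of the 4 factors, Stat2 included, was 1.04 in Trem2 -/-, 0.941 in Trem2 +/- and 1.13 on cuprizone.

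Parp9, Parp14 and Dtx3l as a group and the interferon-induced GTPases were near level on cuprizone, with summed ratios of 0.963 and 1.01. In the first group Parp9 was at 1.04, Parp14 at 1.12 and Dtx3l at 0.756 (0.582 to 0.984). Igtp, an immunity-related GTPase, had 38.5 CPM in Trem2 -/- and 38.6 CPM in Trem2 +/-, against 42.3 CPM on cuprizone and 39.0 CPM on control diet in Trem2 +/+. Gbp2, a guanylate-binding protein, had 7.52, 5.49 and 11.5 CPM in the Trem2 -/-, Trem2 +/- and Trem2 +/+ cuprizone libraries and 7.15 CPM on control diet. It was called in all 3 comparisons, but 1 Trem2 +/+ cuprizone cell held 25 of its UMIs, or 35.2%. Without the top cell of each library its ratios were 0.886 in Trem2 -/-, 0.676 in Trem2 +/- and 1.08 on cuprizone, and none was called.

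The remaining members include the most abundant ones. Ifi27l2a had 185 CPM in Trem2 -/- and 242 CPM in Trem2 +/-, against 294 CPM on cuprizone and 146 CPM on control diet in Trem2 +/+. The libraries were ordered as for Ifitm3, and Trem2 -/- was 1.59-fold lower (1.48 to 1.71), with no call without cluster 04, at a ratio of 0.718, or over all deposited cells, at 0.695. Lgals3bp, a secreted galectin-binding glycoprotein, had 208, 256 and 241 CPM in the Trem2 -/-, Trem2 +/- and Trem2 +/+ cuprizone libraries and 149.8 CPM on control diet. Ifi204, a DNA-binding protein of a family with several close copies, had 28.1 CPM in Trem2 -/- and 44.7 CPM in Trem2 +/-, against 52.5 CPM on cuprizone and 17.9 CPM on control diet. It was 1.87-fold lower in Trem2 -/- (1.55 to 2.25), while its Trem2 +/- ratio was 0.852 (0.725 to 1.001). Rsad2, which makes a nucleotide that halts viral RNA synthesis, had 12.1 CPM in Trem2 -/- and 7.33 CPM in Trem2 +/-, against 11.01 CPM on cuprizone and 4.67 CPM on control diet. Like Ifit1 and Ifit3 it was close to the Trem2 +/+ cuprizone level in Trem2 -/-, with a ratio of 1.10 (0.786 to 1.55). However, 1 Trem2 -/- cell held 23 of its UMIs, or 29.1%. In Trem2 +/- Rsad2 was called lower, at a ratio of 0.665 (0.450 to 0.977). That call was lost under TMM scaling, over all deposited cells, without cluster 04 and without the 5% deepest cells.

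Rtp4 had 68.2, 55.4 and 61.2 CPM in the Trem2 -/-, Trem2 +/- and Trem2 +/+ cuprizone libraries and 42.3 CPM on control diet. Xaf1, a promoter of cell death, had 42.1, 35.4 and 43.7 CPM in those libraries and 30.2 CPM on control diet. Slfn2 had 69.5, 78.9 and 73.2 CPM there and 52.2 CPM on control diet. These 3 genes were 1.40-fold to 1.45-fold higher on cuprizone, under the threshold, and were not called between genotypes. Sp100, a nuclear body protein, had 27.9, 31.3 and 35.5 CPM in the Trem2 -/-, Trem2 +/- and Trem2 +/+ cuprizone libraries and 22.8 CPM on control diet, and was called higher on cuprizone at 1.55-fold (1.20 to 2.03). Trim30a had 59.1, 62.0 and 66.1 CPM in those libraries and 57.4 CPM on control diet. Ifi35 had 75.8, 69.0 and 78.1 CPM there and 75.9 CPM on control diet. Trim30a and Ifi35 were called nowhere. Samd9l, which represses translation, was rare at 2.30, 4.58 and 6.32 CPM in the Trem2 -/-, Trem2 +/- and Trem2 +/+ cuprizone libraries and 3.85 CPM on control diet, and was 2.74-fold lower in Trem2 -/- (1.48 to 5.36). Without cluster 04, cluster 08 or the deepest cells it had under 50 UMIs and no call. The 15 members not given by library had at most 36.3 CPM in any library. Their ratios, where they had enough UMIs, lay between 0.664 and 1.12 in Trem2 -/-, 0.683 and 1.23 in Trem2 +/-, and 0.695 and 1.42 on cuprizone. The rarest, Ifi44, had 19 UMIs in all pooled cells.

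**Figure D2:**
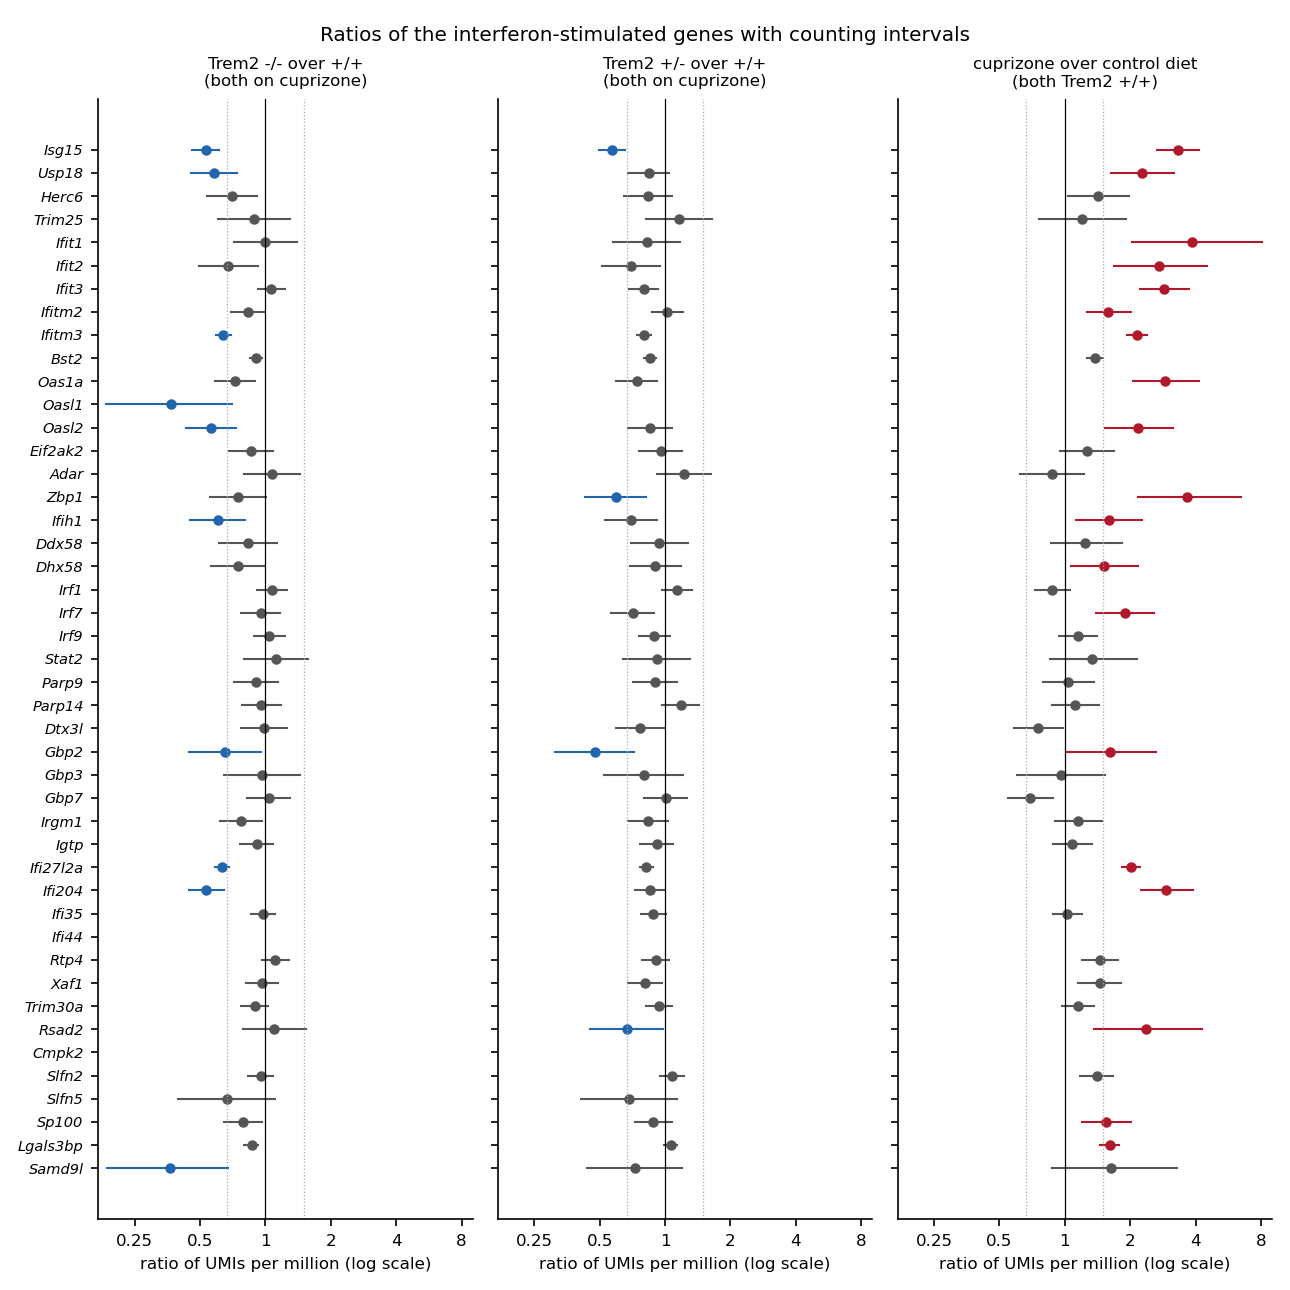
Ratio of CPM for each member with at least 50 UMIs over both libraries (log axis) in the 3 comparisons, with lines for exact binomial 95% counting intervals. Red marks members called higher, blue lower, grey neither, and dotted lines mark 1.5-fold. On cuprizone 19 of 41 members are red and 0 blue, in Trem2 -/- 10 of 43 are blue and in Trem2 +/- 4 of 42 are blue.

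Whether few or many cells carried these differences was read from cells thinned to 2915 UMIs each, the 10th percentile of pooled cells. This left out 80 Trem2 -/-, 51 Trem2 +/-, 59 Trem2 +/+ cuprizone and 69 control cells that were shallower. The median thinned cell held 4 member UMIs in each of the 4 libraries, a whole-number count that can hide small differences. At least 3 member UMIs were found in 70.6% of Trem2 -/- and 74.4% of Trem2 +/- cells, against 78.1% of Trem2 +/+ cuprizone and 66.1% of control cells. At least 10 member UMIs, a limit passed by about 5% of control cells by construction, were found in 79 of 673 Trem2 -/- cells, 90 of 644 Trem2 +/- cells and 94 of 604 Trem2 +/+ cuprizone cells, against 21 of 410 control cells. These are 11.7% (exact binomial 95% interval 9.40% to 14.4%), 14.0% (11.4% to 16.9%), 15.6% (12.8% to 18.7%) and 5.12% (3.20% to 7.72%). The share was 10.4 percentage points higher on cuprizone than on control diet in Trem2 +/+ (Newcombe 95% interval 6.73 to 14.0). The limit fixes the control share, so its interval and that of this difference are not those of a free estimate. All intervals of these shares take cells as draws from a library and do not measure the spread between animals. The difference of Trem2 -/- from Trem2 +/+ was -3.82 points (-7.64 to -0.06), an interval that ends close to 0. With another random draw of UMIs it was -3.71 points (-7.57 to 0.0996), an interval that holds 0, so whether 0 lies outside depends on the draw. For Trem2 +/- it was -1.59 points, and its interval (-5.55 to 2.35) held 0.

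Cells at or above this limit held 37.4% of all member UMIs in Trem2 -/- and 40.2% in Trem2 +/-, against 47.2% in Trem2 +/+ on cuprizone and 20.2% on control diet. The cells below it held a mean of 3.7997 and 4.04 member UMIs in Trem2 -/- and Trem2 +/-, against 4.09 and 3.61 in Trem2 +/+ on cuprizone and control diet. On cuprizone the mean over all thinned cells was 6.54 UMIs, against 4.30 on control diet. Because the limit was set on the same UMIs, cells below it cannot hold 10 or more. These means therefore do not show how far the gap lay in few cells or in many. Leaving out the 5% of cells with the highest member share in each library, without thinning, gave ratios of 0.840 for Trem2 -/-, 0.929 for Trem2 +/- and 1.43 for cuprizone. With the top 20% left out they were 0.886, 0.972 and 1.37. The cuprizone and Trem2 -/- ratios kept their direction in the lower 80% of cells, with intervals of 1.31 to 1.43 and 0.857 to 0.916. The Trem2 +/- interval there held 1 (0.940 to 1.004). Here too cells were left out by the share that was then compared, and depth was not made equal. These ratios therefore do not give the number of cells that carried the differences. Before thinning, the median cell stood at 1348 CPM in Trem2 -/- and 1509.8 CPM in Trem2 +/-, against 1478 CPM in Trem2 +/+ on cuprizone and 1129 CPM on control diet.

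**Figure D3:**
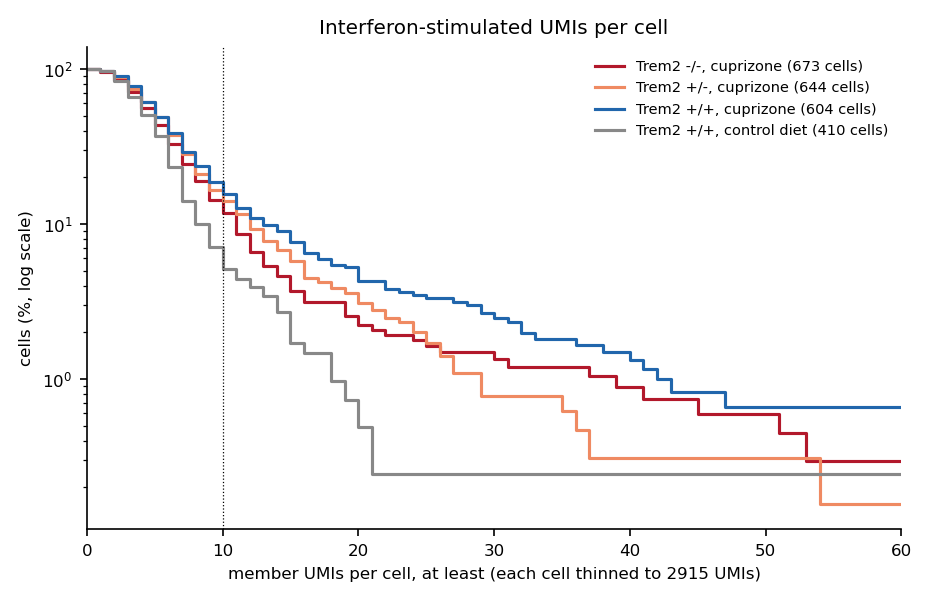
Share of cells (log axis) with at least the number of member UMIs on the horizontal axis, each cell thinned to 2915 UMIs, 1 line per library. The dotted line marks 10 UMIs, reached by 11.7%, 14.0% and 15.6% of Trem2 -/-, Trem2 +/- and Trem2 +/+ cuprizone cells and 5.12% of control cells. At 3 UMIs the lines stand at 70.6%, 74.4% and 78.1% in the same cuprizone libraries and 66.1% on control diet, and the gap to control is proportionally wider at 10.

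Single members differed in how they were spread over cells. After thinning, Isg15 was found in 9.81% of Trem2 -/- and 8.85% of Trem2 +/- cells, against 11.8% of Trem2 +/+ cuprizone and 6.10% of control cells. Cells with an Isg15 UMI held a mean of 1.61 and 1.63 of them in Trem2 -/- and Trem2 +/-, against 2.08 in Trem2 +/+ on cuprizone and 1.04 on control diet. The Trem2 +/+ cuprizone library was highest in both measures, but the intervals of the shares overlapped among the 3 cuprizone libraries. Ifitm3 was found in 24.1% and 28.4% of cells in Trem2 -/- and Trem2 +/-, against 33.4% in Trem2 +/+ on cuprizone and 20.2% on control diet. Bst2 was found in about as many cells of every library, between 49.8% and 52.8%. Free RNA can give UMIs in cells that do not express a gene. No cluster here could be taken to lack these genes, so that background was not set.

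To see whether the same cells carried several members, thinned cells were divided by their UMIs of Isg15, Ifit1, Ifit2 and Ifit3, and the other members were then read in each class. At least 3 UMIs of these 4 genes were found in 20 Trem2 -/- cells (2.97%, 1.82% to 4.55%) and 18 Trem2 +/- cells (2.80%, 1.66% to 4.38%). The Trem2 +/+ cuprizone library had 27 such cells (4.47%, 2.97% to 6.44%) and the control library 2 (0.488%, 0.059% to 1.75%). Such cells were thus present in every library, rarest on control diet, and not separable between the 3 cuprizone libraries at this depth. These 67 of 2331 cells held 63.1% of the UMIs of the 4 genes. They held 22.3% of the UMIs of 18 other members and 9.47% of those of the remaining 23. The 18 members, all known to be strongly inducible, were Rsad2, Cmpk2, Oasl1, Oasl2, Usp18, Irf7, Rtp4, Zbp1, Oas1a, Herc6, Xaf1, Samd9l, Dhx58, Ddx58, Ifih1, Ifi44, Ifi204 and Parp14. Their mean was 7.10 UMIs per such cell in Trem2 -/- and 7.28 in Trem2 +/-, against 8.48 in Trem2 +/+ on cuprizone and 11.5 in the 2 control cells. In cells with none of the 4 genes the means were 0.698 and 0.748, against 0.750 and 0.614.

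**Figure D4:**
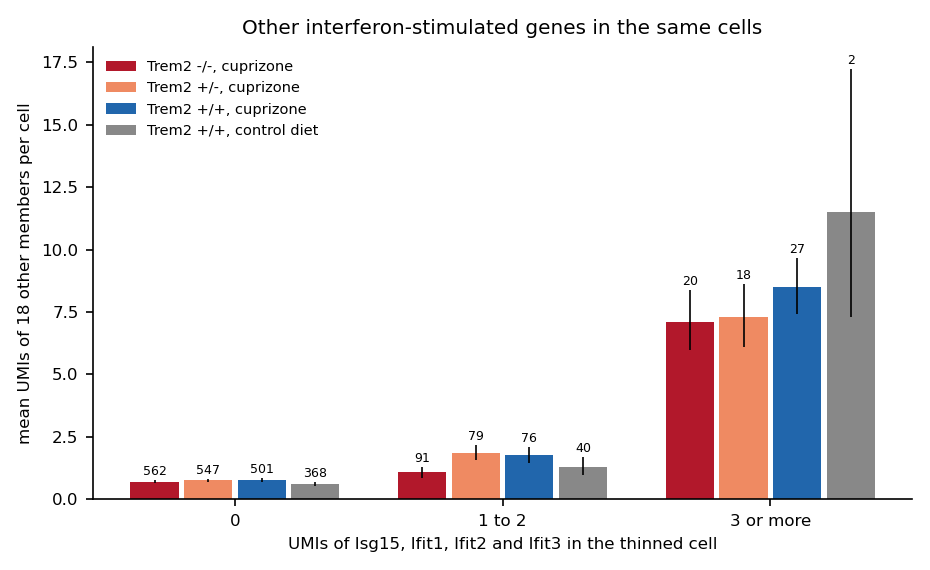
Mean UMIs of 18 other members per thinned cell, by the cell's UMIs of Isg15, Ifit1, Ifit2 and Ifit3, with a bar for each library, exact Poisson 95% counting intervals as lines and the number of cells above each bar. Cells with 3 or more of those UMIs hold means of 7.10, 7.28 and 8.48 in the Trem2 -/-, Trem2 +/- and Trem2 +/+ cuprizone libraries and 11.5 in 2 control cells, against 0.614 to 0.750 in cells with none.

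The members fell along a range in how closely they followed these 67 cells, compared with the 1978 cells with none of the 4 genes. Rsad2 had 35 of its UMIs in the 67 cells and 11 in the 1978, a mean 93.9-fold higher per cell (46.6 to 205). From fewer UMIs in the 67 cells, Cmpk2 was 47.2-fold (13.6 to 184) and Oasl1 29.5-fold (8.84 to 98.6) higher. Slfn5 was 21.6-fold higher (8.99 to 50.4). The intervals of these genes overlap that of Rsad2. Among the rest, Usp18 was 21.1-fold, Zbp1 20.4-fold, Irf7 19.7-fold, Gbp2 17.9-fold, Ifi204 17.5-fold and Ifitm3 10.5-fold higher. Of the other abundant members, Ifi27l2a was 3.62-fold, Bst2 2.75-fold and Lgals3bp 2.19-fold higher. Irf1 was 2.01-fold higher (1.22 to 3.12). Ifitm2 at 1.69-fold (0.795 to 3.18), Adar at 1.20-fold (0.241 to 3.64) and Irf9 at 0.862-fold (0.368 to 1.72) were not separable from level. Of the 5 promoters shown, those of Isg15, Ifit3, Rsad2 and Ifitm3 hold the searched letters and that of Irf9 does not. The letters alone did not divide the members in this way: they were found in 7 of 16 matched members among the 4 and the 18 genes, and in 12 of 21 of the remaining ones. The Bst2 promoter held 2 matches.

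Microglia markers summed to 19572 CPM in the 67 cells, against 22726 CPM in the cells with none of the 4 genes. Of the other marker lists, the 6 detected monocyte markers summed to 182 CPM, against 23.3 CPM, with 37 Ly6c2 UMIs in 3 of the cells and 69 UMIs of Ms4a4c, which is also interferon-induced, in 21. Of 8 T or NK cell markers listed, only 3 were present, so that list says little about those cells. Ccl5 stood at 543 CPM, against 30.8 CPM, and came from 11 of the 67 cells. Nkg7 had 1 UMI there and Klrb1c had 0. Border macrophage markers summed to 419 CPM, against 231 CPM, and neutrophil markers to 94.8 CPM, against 718 CPM. The part of other cell types in these cells was not tested.

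Across the authors' clusters, which were made from these cells and so describe rather than test, the member sum was compared wherever both libraries had at least 20 cells. On cuprizone it was higher than on control diet in all 4 pooled clusters compared, with ratios of 1.77 in cluster 01, 1.30 in cluster 02, 1.19 in cluster 05 and 1.57 in cluster 06. In Trem2 -/- it was lower than in Trem2 +/+ in all 5 compared, and the interval excluded 1 in 4 of them. These ratios were 0.669 in cluster 01, 0.816 in cluster 02, 0.822 in cluster 06 and 0.848 in cluster 08, with 0.937 (0.861 to 1.02) in cluster 05. In Trem2 +/- it was lower in clusters 01, 02 and 04, with ratios of 0.668, 0.9298 and 0.718, and not separable from 1 in clusters 05, 06 and 08. In cluster 01, 1 cell held 14.7% of the Trem2 +/+ cuprizone member UMIs. The median cell there stood at 1171 CPM in Trem2 -/- and 1176 CPM in Trem2 +/+ on cuprizone. With top cells left out, cluster 01 ratios were 0.745 for Trem2 -/-, 0.715 for Trem2 +/- and 1.59 for cuprizone. The Trem2 -/- ratios of clusters 02, 05, 06 and 08 were then 0.825, 0.959, 0.835 and 0.852. In Trem2 -/- and on cuprizone the direction of the pool was thus found in each pooled cluster compared.

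Cluster 04 was the cluster of the pool with the highest sum in the Trem2 +/+ cuprizone library, at 3063 CPM, against 2199 CPM in Trem2 +/-. The 13 Trem2 -/- cells of cluster 04 reached 5102 CPM, but 40.2% of those UMIs came from 1 cell. With the same weight for each of the 6 clusters these 13 cells count as much as any cluster, and the Trem2 -/- ratio was then 1.004. Cluster 08, with 175 Trem2 -/-, 77 Trem2 +/-, 76 Trem2 +/+ cuprizone and 13 control cells, stood at 2296 CPM in Trem2 -/- and 2725 CPM in Trem2 +/-, against 2706 CPM in Trem2 +/+ on cuprizone. Outside the pool, cluster 07, which carries border macrophage markers at 2845 CPM, had the highest sum in each library among clusters with at least 20 of its cells. It held 3048 CPM in Trem2 -/- and 4023 CPM in Trem2 +/-, against 3923 CPM on cuprizone and 2855 CPM on control diet in Trem2 +/+. The order of the Trem2 -/- and both Trem2 +/+ libraries was that of the pool, with ratios of 0.777 for Trem2 -/- and 1.37 for cuprizone.

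**Figure D5:**
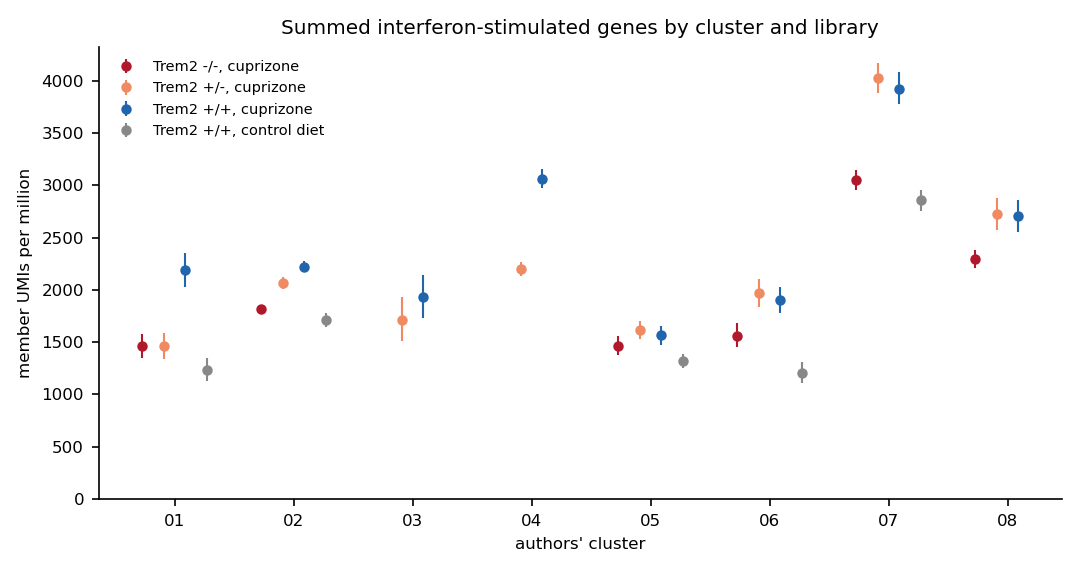
Summed level of the 45 members (CPM) by authors' cluster and library, with exact Poisson 95% counting intervals, for clusters with at least 20 cells of a library. Cluster 04 reads 2199 CPM in Trem2 +/- and 3063 CPM in Trem2 +/+ on cuprizone, and cluster 07, outside the pool, is the highest in the Trem2 -/-, Trem2 +/-, Trem2 +/+ cuprizone and control libraries.

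The pathway around the members was read from fixed lists. None of 7 interferon genes listed was among the genes analysed. The 5 receptor subunits present were called in no comparison. Ifnar1, a subunit of the type I receptor, had 42.4 CPM in Trem2 -/- and 49.6 CPM in Trem2 +/-, against 53.6 CPM on cuprizone and 46.7 CPM on control diet in Trem2 +/+. Of 11 upstream sensors and adaptors and 7 negative regulators with enough UMIs, 0 were called in any comparison.

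Of 51 other interferon-induced genes present, 8 of the 39 with enough UMIs were called lower in Trem2 -/-, 6 of 40 were called lower in Trem2 +/-, and 9 of 38 were called higher on cuprizone. The shares of all genes called in these directions were 3.86%, 1.17% and 2.59%. No gene of that list was called in the opposite direction. The chemokine Ccl12 had 263 CPM in Trem2 -/- and 269.7 CPM in Trem2 +/-, against 547 CPM on cuprizone and 344 CPM on control diet in Trem2 +/+. Both mutant libraries were below control diet for Ccl12, unlike for Isg15 or Ifitm3. The chemokine Cxcl10 had 42.5, 53.7 and 72.5 CPM in the Trem2 -/-, Trem2 +/- and Trem2 +/+ cuprizone libraries and 36.3 CPM on control diet, an order like that of Isg15. Ifit3b had 14.6 CPM in Trem2 -/- and 9.16 CPM in Trem2 +/-, against 16.5 CPM on cuprizone and 5.22 CPM on control diet. As for Ifit3, its Trem2 -/- level was close to that of Trem2 +/+ on cuprizone, with a ratio of 0.883 (0.661 to 1.18).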

How the data were processed

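The authors deposited raw counts, a whole number of UMIs for each gene in each cell. The submitters' processing notes name Cell Ranger 2.1.1 and the genome build mm10. Libraries were made with the Chromium 3′ kit with v2 chemistry, per the labels' protocols. The deposited table holds 12800 genes and 3023 cells left after the authors' quality filter, each with a library and 1 of 8 clusters. Doublets were not called here. The annotation that the counts rest on is not given in the sources used here.

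UMIs were summed per library over the 6 pooled clusters, and the interval of a ratio of sums is the 95% Clopper-Pearson interval of the conditional binomial share. With 1 library per group no model was fitted and no p-value is given. Intervals cover counting error only. Those of UMI counts take UMIs as independent draws, while single cells can hold many UMIs of a gene, so they can be too narrow. A cell was thinned by drawing 2915 of its UMIs without replacement. TMM factors came from edgeR 4.0.16 (R 4.3.3). The interval method was tested on simulated counts. Python 3.11.15 with numpy 2.4.6, pandas 2.3.3 and scipy 1.17.1 was used.

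The members, gene lists, markers and alternatives were chosen with earlier results of these data known. Named with values in each library are the 15 members with the most UMIs and all called members, 30 in total. Of the pathway lists, Ccl12, Cxcl10, Ifit3b and Ifnar1 are given by library. Other called genes of those lists are not named, and Ifnar1 was called in no comparison. A result of the signalling list is not reported here. Median depth in the pool was 6061 UMIs per cell in Trem2 -/-, 6849 in Trem2 +/-, 6588 in Trem2 +/+ on cuprizone and 4717 on control diet. Close copies, such as Ifit3 and Ifit3b, Oas1a and Oas1g, Ifitm2 and Ifitm3, Gbp3 and Gbp7, and the Ifi204 family, may share reads, and their counts are uncertain.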

Additional observations from a re-analysis of the deposited data

Results flagged for a closer look

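The summed level of the 22 strongly inducible members (Isg15, Ifit1, Ifit2, Ifit3 and the 18 read beside them) moved in opposite directions by cluster when Trem2 +/- was set against Trem2 +/+ on cuprizone. With counting intervals that excluded 1, the Trem2 +/- ratio was below 1 in 4 clusters and above 1 in 2. It was 0.4497 in cluster 01, 0.824 in cluster 02, 0.499 in cluster 03 and 0.583 in cluster 04. It was 1.21 in cluster 07 and 1.25 in cluster 08. The differences between clusters were not tested. Without the cell with the most of these UMIs in each library the ratios were 0.568, 0.837, 0.444 and 0.690 in clusters 01 to 04 and 1.14 in cluster 07. In cluster 08 the ratio became 0.922, so its direction rested on single cells. Cluster 03 held 20 Trem2 +/- and 21 Trem2 +/+ cuprizone cells.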

How the results depend on the processing

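Each result was recomputed under TMM scaling, other pools, other thresholds, other weights and other sets of members. No paired analysis was possible because each group is 1 library. Leaving out cluster 04 or the 5% deepest cells was chosen after seeing the data. For Trem2 -/- over Trem2 +/+ on cuprizone, the summed ratio was 0.867 without Ifitm3 and Ifi27l2a, 0.8397 over all deposited cells, 0.781 without cluster 08 and 0.859 without cluster 04. It turned to 1.004 with the same weight for each cluster, where 13 cells stand for cluster 04. The count of lower members was 2 at 2-fold and 5 without cluster 04, and without the top 1% or 20% of cells the ratio was 0.792 or 0.886. Gbp2 turned to a log2 ratio of 0.17 over all deposited cells. For Trem2 +/-, the lower count was 1 at 2-fold, 7 without cluster 08 and 0 without cluster 04. The summed ratio was 0.903 over all deposited cells and 0.933 without cluster 04, and 0.879 or 0.972 without the top 1% or 20% of cells. For cuprizone, 12 members were higher at 2-fold, and 1 (Gbp7) was lower without the deepest cells. The summed ratio was 1.62 as a mean of per-cell CPM, 1.45 without Ifitm3 and Ifi27l2a, 1.33 with the same weight for each cluster, 1.69 under TMM, 1.37 over all deposited cells, 1.42 without cluster 04 and 1.64 without the deepest cells. Without the top 1% or 20% of cells it was 1.53 or 1.37. With the limit at the 99th percentile of control cells, the share of cells past it differed by 4.49 percentage points. TMM moved the median log2 ratio of all genes on cuprizone by 0.12. Under the other alternatives run, sums and shares stayed within the counting interval of the reported value, counts within 1.5-fold and medians within the median interval of the members. The cause of the changes was not tested. With 1 library per group, the spread between animals is not known.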
